A study of Mus musculus with 15 samples.

Results

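The step from 250 to 300 mM sorbitol was examined across all genes in 6 of the 15 libraries of a series on mouse embryonic stem cells. The 6 libraries were chosen by their labels, 3 for each dose, and no measured value entered the choice. All cells were of the REX-1 RFP line, which makes a red fluorescent protein from the promoter of Zfp42 (also called Rex1), a gene of undifferentiated stem cells. The cells of every group were grown with leukaemia inhibitory factor (LIF) for about 18 h to about 24% confluence and then kept in their condition for 72 h. The groups at 200, 250 and 300 mM sorbitol kept LIF throughout, the NS group (normal stemness) kept LIF without sorbitol, and the ND group (normal differentiation) had LIF withdrawn. Each group held 3 libraries, numbered 1 to 3, from experiments that the labels describe as biological triplicates, so that p-values measure the spread between such repeats of 1 cell line. RNA was read by a 3' tag method, in which a transcript gives tags near its 3' end whatever its length.

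Sorbitol is a sugar alcohol that mammalian cells take up poorly, so it draws water out of them and raises the concentration of ions inside. Cells answer by taking up ions through cotransporters and, over hours, by gathering uncharged osmolytes such as inositol, sorbitol and betaine, under the transcription factor NFAT5. Embryonic stem cells depend on LIF, through STAT3, to hold the network around Oct4 (Pou5f1), Sox2 and Nanog, and hyperosmolar medium is known as a stress that can bring out genes of extraembryonic lineages in them. The comparison of the 2 upper doses asks what the last increment added to cells already under stress.

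Total counts were 1872918, 1209521 and 1194045 in replicates 1, 2 and 3 at 250 mM and 1909528, 1160231 and 1036314 at 300 mM, within a range of 968556 to 2289528 over the series. A count of 3 stood for 1.57 to 2.76 CPM (a gene's share of a library's tags on the usual scale, adjusted between libraries) in these 6 libraries. Of 21516 genes in the files, 9390 had enough counts to be tested. Among the 12126 others, 5795 had no count at either dose, and 5 had at least 10 counts at 1 dose and none at the other: 4930441O14Rik (10 counts) and Spna1 (12 counts) at 300 mM, and Dbx2 (11 counts), Gm648 (10 counts) and Stau2 (10 counts) at 250 mM. These 5 were singled out after their values were seen. The summed level of 7 embryonic stem cell markers was 1156 to 1469 CPM at 250 mM and 1163 to 1492 CPM at 300 mM. The summed primitive endoderm markers gave 37.2 to 50.3 and 32.1 to 43.8 CPM, and the trophoblast markers, with Prl3d1 at 0, gave 92.9 to 102 and 75.5 to 109 CPM. Fibroblast markers (Col3a1, Postn and Lum at 0), mesoderm markers (T at 0) and blood markers summed to at most 7.07, 3.68 and 0.921 CPM. The 4 neuroectoderm markers, with Neurog2 at 0, summed to 83.1 to 86.9 CPM at 250 mM and 99.6 to 112 CPM at 300 mM, and nearly all of it was Tubb3 (367 counts at 250 mM and 423 at 300 mM).

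Libraries of the 2 doses differed from each other by about as much as repeats of 1 dose did. The root mean square log2 difference over the tested genes was 0.464 to 0.713 between libraries of 1 dose (6 pairs), 0.485 to 0.694 between libraries of different dose and different number (6 pairs) and 0.466 to 0.507 between libraries of different dose and the same number (3 pairs). Replicate 1 at 250 mM and replicate 1 at 300 mM were each other's nearest library. Replicate 1 at 300 mM stood farthest from its own group, at 0.608 and 0.713 from replicates 2 and 3. Same-numbered libraries departed from their group means together (correlation 0.447, 0.214 and 0.304 for replicates 1, 2 and 3), so the numbers were taken to pair the libraries, and the fit with the replicate number as a block is given wherever it changes a call. Where the block is not named, an SE or interval of a change comes from the fit of 15 libraries, which leaves the pairing out.

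**Figure D1:**
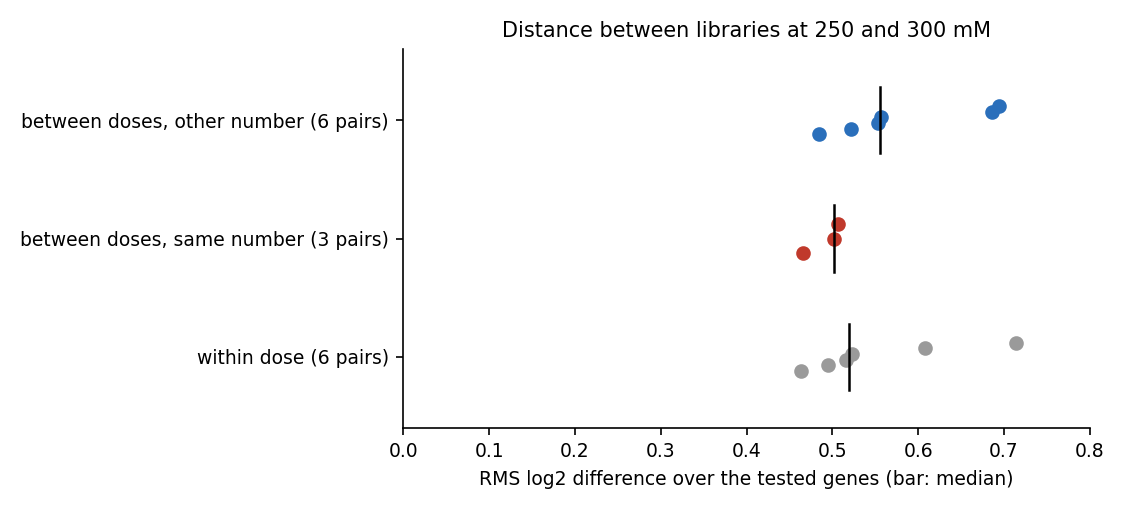
Root mean square log2 difference over 9390 genes (horizontal axis) for each pair of the 6 libraries, by kind of pair, with a bar at the median. The 3 pairs of equal number and different dose lie between 0.466 and 0.507, inside the range of the 6 pairs within a dose (0.464 to 0.713).

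No gene passed the threshold between 300 and 250 mM in either direction (0 of 9390, 0%; edgeR's quasi-likelihood test on all 15 libraries, Benjamini-Hochberg adjusted p below 0.05, smallest adjusted p = 0.9999). At an unadjusted p below 0.05 stood 35 genes with higher counts at 300 mM (0.373%) and 103 with lower counts (1.1%), 138 in all (1.47%). DESeq2, which also called 0, had 161 of the 17396 genes that it tested. In 448 genes (4.77%) all 3 libraries at 300 mM lay above all 3 at 250 mM, and in 484 (5.15%) all lay below, 932 in both directions together (9.93%). With the replicate block in a fit of these 6 libraries, 3 of 8581 genes fell (0.035%) and 0 rose: Scd2, Slc2a1 and Tpi1. Unadjusted p under the block was below 0.05 in 382 genes on the higher side (4.45%) and 477 on the lower (5.56%), together 859 (10%). The same 3 genes passed in DESeq2 with the block, and none passed when the block was fitted to all 15 libraries (smallest adjusted p = 0.443) or to the 9 sorbitol libraries (0.35). The blocked calls rested on the repeats used: without replicate 2 of both doses 0 genes passed, without replicate 3 there were 2 (Scd2 and Txnip), and without replicate 1, which leaves 2 pairs, 96 genes passed on the higher side and 126 on the lower.

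The size of the step was bounded for many genes. In the fit of 15 libraries the 95% interval of the log2 change lay within 2-fold either way for 4951 of the 9390 genes (52.7%) and within 1.5-fold for 622 (6.62%). Among the 3612 genes with a mean of at least 50 CPM, 2919 (80.8%) had intervals within 2-fold. With the block in the 6 libraries, 7092 of 8581 genes (82.6%) had intervals within 2-fold and 3465 (40.4%) within 1.5-fold. In the fit of 15 libraries the median absolute log2 change was 0.18, and 152 genes exceeded 1, 32 upward and 120 downward. For the step below, from 200 to 250 mM, the median absolute log2 change was 0.28 and 366 genes exceeded 1. That step shares the 250 mM libraries, and it too had 0 calls (0%), with 186 genes higher (1.98%) and 422 lower (4.49%, together 608 or 6.47%) at an unadjusted p below 0.05. Against NS, with which both doses share control libraries, 189 genes rose (2.01%) and 231 fell (2.46%) at 250 mM, and 303 rose (3.23%) and 438 fell (4.66%) at 300 mM.

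**Figure D2:**
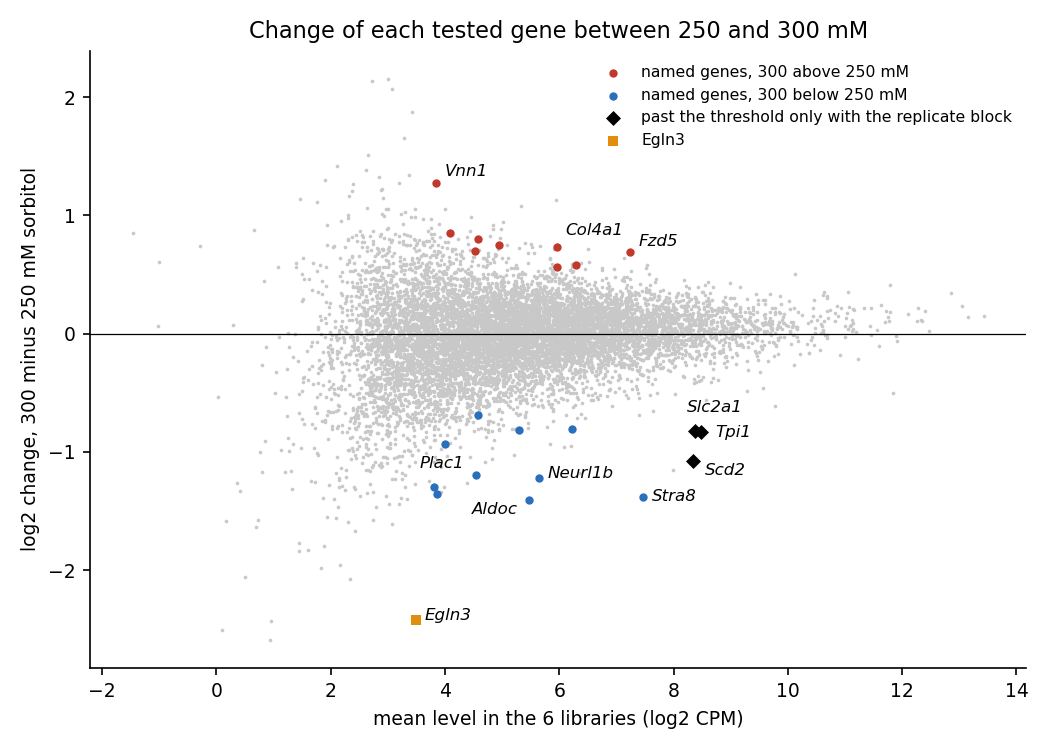
Log2 change from 250 to 300 mM (vertical axis) against the mean level in the 6 libraries (log2 CPM, horizontal axis), 1 point per tested gene. Red and blue points are the genes named on each side, none of which passed the threshold, diamonds are Scd2, Slc2a1 and Tpi1, which passed with the replicate block, and the square is Egln3, at -2.42.

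Genes of glucose use and of the response to low oxygen stood mostly lower at 300 mM. The medians of the glycolysis and oxygen-responsive lists were negative from 200 to 250 mM as well (-0.40 and -0.41). That step shares the 250 mM libraries. Under low oxygen, hypoxia-inducible factors raise glucose uptake, glycolysis and the output of lactate, and mouse embryonic stem cells rely heavily on glycolysis. Of 22 tested glycolysis genes, 19 had a negative log2 change, with a median of -0.29 and a range of -1.41 to 0.57, beside a median of -0.00 and 4772 negative values over all 9390 genes. None passed in the fit of 15 libraries, and 2 (Slc2a1 and Tpi1) fell with the block. All 3 libraries lay lower in 4 of the 22 and higher in 0, beside 5.15% lower and 4.77% higher over all tested genes. Over replicate pairs 1, 2 and 3 the list's median difference was 0.00, -0.44 and -0.44, so replicate 1 showed no shift of the list.

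Slc2a1, which encodes the glucose transporter GLUT1, stood at 256, 549 and 466 CPM in replicates 1, 2 and 3 at 250 mM and at 159, 282 and 280 CPM at 300 mM. Each library at 300 mM was below its same-numbered partner, by -0.68, -0.96 and -0.73 on the log2 scale, while the groups overlapped because replicate 1 was low at both doses. The blocked log2 change was -0.80 ± 0.11 (SE; adjusted p = 0.0323, edgeR's quasi-likelihood test), against -0.82 ± 0.43 without the block (adjusted p = 0.9999). Tpi1, which encodes triosephosphate isomerase of glycolysis, stood at 286, 583 and 500.5 CPM and then at 195, 289.8 and 284 CPM. The pairs differed by -0.55, -1.004 and -0.82, again with overlap of the groups through replicate 1. The blocked change was -0.80 ± 0.12 (adjusted p = 0.0323, edgeR's quasi-likelihood test), and -0.83 ± 0.40 without the block (adjusted p = 0.9999). From 200 to 250 mM neither gene had a negative change (0.63 ± 0.43 for Slc2a1 and 0.12 ± 0.40 for Tpi1, unadjusted p = 0.161 and 0.764 in edgeR's quasi-likelihood test).

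Aldoc, an isoform of the glycolytic enzyme aldolase, was at 45.6, 86.5 and 62.6 CPM at 250 mM and at 34.3, 27.0 and 10.1 CPM at 300 mM. All libraries at 300 mM were lower, and the change of -1.41 ± 0.52 did not pass (adjusted p = 0.9999, edgeR's quasi-likelihood test). Slc16a3, the lactate exporter, was at 237, 464 and 358 CPM and then at 227, 129.7 and 118 CPM. It did not overlap between the doses, but replicate pair 1 differed by only -0.06 where pairs 2 and 3 differed by -1.83 and -1.59. Ldha, lactate dehydrogenase, was at 739, 1145 and 1284 CPM and then at 769, 651 and 652 CPM. Its replicate 1 was low already at 250 mM, the groups overlapped, and the change was -0.61 ± 0.27. Pdk1, the kinase that holds pyruvate back from the mitochondria, was at 73.8, 84.1 and 91.9 CPM and then at 43.5, 62.3 and 63.6 CPM, with no overlap and pairs of -0.74, -0.42 and -0.52. None of Aldoc, Slc16a3, Ldha and Pdk1 passed with the block either (adjusted p = 0.194, 0.194, 0.292 and 0.296, edgeR's quasi-likelihood test). From 200 to 250 mM their changes were -1.33, -0.66, -0.56 and 0.05.

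The 21 tested oxygen-responsive genes outside glycolysis (a list that shares Pdk1 with the former) had a median of -0.40, with 17 negative values, and 0 passed with or without the block. Here every replicate pair had a negative median (-0.20, -0.43 and -0.35), and all libraries lay lower in 3 genes and higher in 0 (over all tested genes, 5.15% and 4.77%). Egln3, an oxygen-sensing prolyl hydroxylase that is itself induced by hypoxia-inducible factors, was at 10.998, 23.0 and 23.0 CPM at 250 mM and at 3.26, 1.68 and 5.53 CPM at 300 mM. These last values were close to the level of 3 counts. The change was -2.42 ± 0.51, with a 95% interval of -3.49 to -1.34, and it did not pass (unadjusted p = 0.000188, adjusted p = 0.9999, edgeR's quasi-likelihood test), though it did when no low genes were filtered out (adjusted p = 0.0164). Egln3 was at 72.9 ± 22.1 CPM in NS (SD, n = 3) and 39.8 ± 15.5 CPM at 200 mM, so its mean was lower at each higher dose. Bnip3, a mitophagy receptor, was at 57.1, 123 and 90.3 CPM and then at 56.0, 40.4 and 41.4 CPM. Replicate pair 1 differed by only -0.03, the other pairs by -1.57 and -1.097, and the change of -0.96 ± 0.39 did not pass. Vegfa, the vascular growth factor, and Ndrg1 overlapped between the doses, with changes of -0.40 ± 0.32 and -0.70 ± 0.47. Against NS, Egln3 had fallen at both doses (-1.96 at 250 mM, adjusted p = 0.0124, and -4.38 at 300 mM, adjusted p = 0.000191, edgeR's quasi-likelihood test).

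Hypoxia-inducible factors bind DNA at a short core that can read ACGTG or GCGTG, so the 250 bases before the transcription start were searched for both on either strand in RefSeq's promoters of the build GRCm38.p6, which is not the authors' build (mm9). ACGTG occurred in 5444 of 32851 promoter windows (16.6%), in 14 of 31 windows of the 21 matched glycolysis genes of 22 (45.2%) and in 13 of 24 windows of the 18 matched oxygen-responsive genes of 21 (54.2%). GCGTG occurred in 9250 of all windows (28.2%), in 17 windows of the glycolysis genes (54.8%) and in 14 of the oxygen-responsive genes (58.3%). In the 18 windows of the 15 matched cholesterol genes of 23, described further on, ACGTG occurred in 4 (22.2%) and GCGTG in 9 (50%). A match is a description of the letters only, and genes with several start sites have several windows. The oxygen-responsive list was picked for its known response to low oxygen, and the 32851 windows include genes that were not tested. The shares therefore test no cause. The windows of 5 genes described above are shown 5′ to 3′ on the strand of the gene, with ACGTG in capitals on either strand, to show the lettering of genes whose levels stood lower at 300 mM. They are Egln3 (chr12:54203875-54204124, minus strand), Slc16a3 (chr11:120948817-120949066, plus strand), Slc2a1 (chr4:119108495-119108744, plus strand), Bnip3 (chr7:138909507-138909756, minus strand) and Tpi1 (chr6:124814159-124814408, minus strand).
Egln3: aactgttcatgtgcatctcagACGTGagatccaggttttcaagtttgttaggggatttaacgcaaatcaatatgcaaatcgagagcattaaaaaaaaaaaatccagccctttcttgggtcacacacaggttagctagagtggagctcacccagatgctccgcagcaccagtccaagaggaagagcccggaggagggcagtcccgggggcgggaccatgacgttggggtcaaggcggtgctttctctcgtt
Slc16a3: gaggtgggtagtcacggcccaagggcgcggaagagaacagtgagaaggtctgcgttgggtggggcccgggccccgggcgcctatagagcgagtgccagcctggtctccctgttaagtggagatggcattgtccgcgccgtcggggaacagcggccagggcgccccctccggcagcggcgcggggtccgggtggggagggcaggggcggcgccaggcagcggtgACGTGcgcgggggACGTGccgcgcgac
Slc2a1: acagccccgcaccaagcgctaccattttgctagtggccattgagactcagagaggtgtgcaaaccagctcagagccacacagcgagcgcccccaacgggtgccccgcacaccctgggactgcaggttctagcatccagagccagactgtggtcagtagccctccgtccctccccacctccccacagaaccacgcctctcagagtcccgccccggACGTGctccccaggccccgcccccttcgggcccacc
Bnip3: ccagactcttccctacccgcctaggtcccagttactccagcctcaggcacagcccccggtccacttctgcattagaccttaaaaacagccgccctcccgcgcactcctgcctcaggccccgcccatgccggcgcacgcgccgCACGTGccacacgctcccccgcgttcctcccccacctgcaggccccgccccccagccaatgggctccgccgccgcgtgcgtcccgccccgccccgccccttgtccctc
Tpi1: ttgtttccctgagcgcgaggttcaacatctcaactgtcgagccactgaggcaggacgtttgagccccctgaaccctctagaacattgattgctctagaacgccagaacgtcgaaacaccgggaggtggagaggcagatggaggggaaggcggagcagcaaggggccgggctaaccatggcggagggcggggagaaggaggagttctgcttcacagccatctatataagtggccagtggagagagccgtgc
The match in Egln3 began 229 bases before the start, that in Slc2a1 36 bases, and those in Slc16a3 27 and 14 bases. In Bnip3 a match on each strand overlapped in 1 run of capitals, 108 and 107 bases before the start. The window of Tpi1, which fell with the block, held none.

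**Figure D3:**
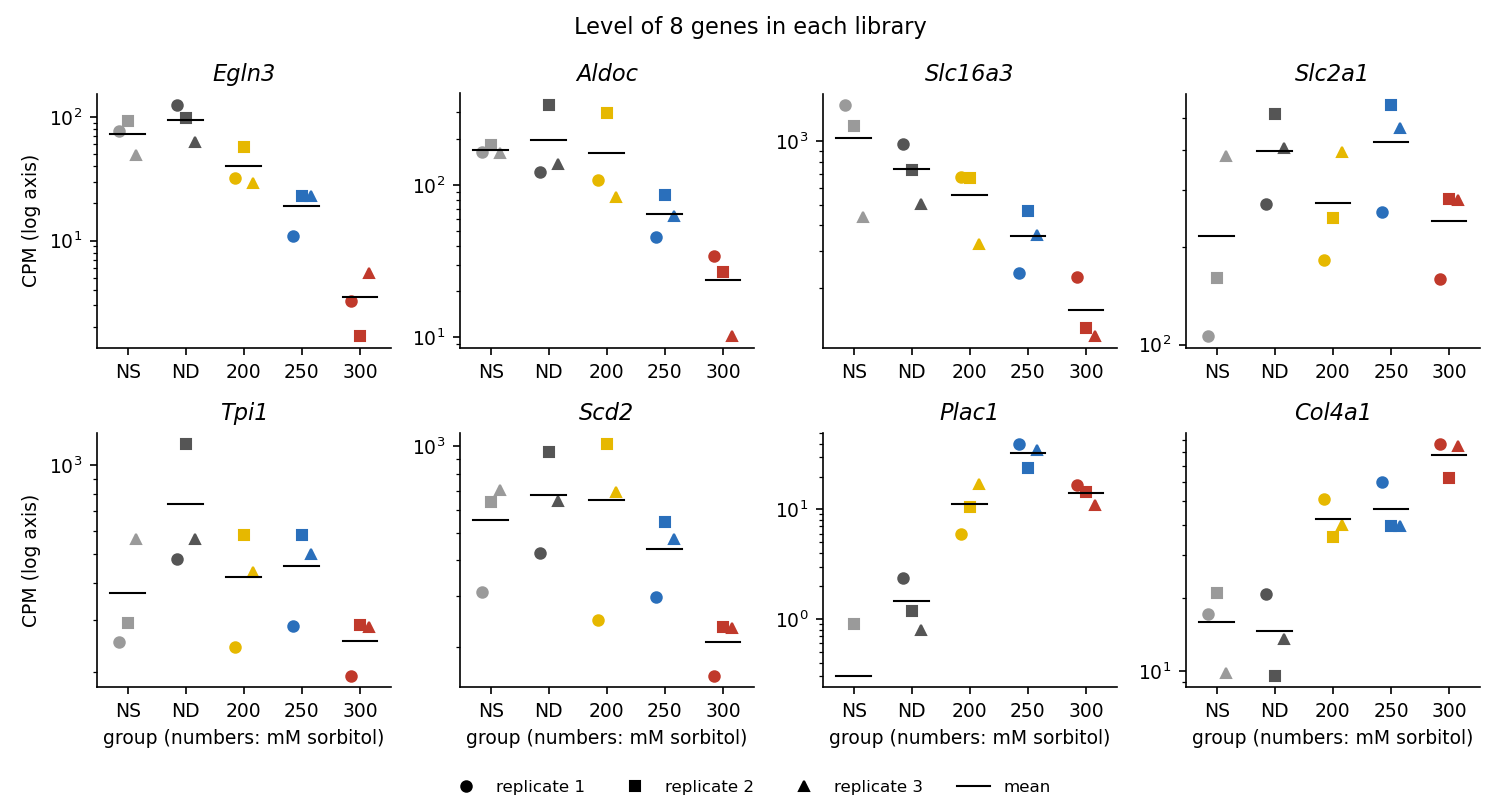
CPM of 8 genes in each of the 15 libraries (log axis), by group, with the symbol giving the replicate number and the bar the mean. Egln3, Aldoc and Slc16a3 at 300 mM lie below all libraries at 250 mM, Slc2a1 and Tpi1 are lower within each replicate number, and Col4a1 is higher in all 3 libraries. NS libraries with no count of Plac1 are not drawn.

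Genes of cholesterol synthesis also stood mostly lower, while those of fatty acid synthesis were more mixed. From 200 to 250 mM the medians of the cholesterol and fatty acid lists were negative too (-0.42 and -0.20). Cells make cholesterol and desaturate fatty acids under the SREBP transcription factors, which sterols and the protein INSIG hold back. Of 23 tested genes of cholesterol synthesis and uptake, 20 had a negative change, with a median of -0.35, and 0 passed with or without the block. The medians of the replicate pairs were -0.18, -0.46 and -0.39, and all libraries lay lower in 4 genes and higher in 0 (5.15% and 4.77% over all tested genes). Of 17 genes of fatty acid synthesis and desaturation, 11 were negative and 6 positive, with a median of -0.14. The synthesis genes Fasn (0.07), Acaca (0.07) and Elovl6 (0.14) were among the positive ones, and Acly was at -0.09. In this list 1 gene fell with the block.

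That gene was Scd2, a stearoyl-CoA desaturase that makes monounsaturated fatty acids. It stood at 299.6, 544 and 477 CPM at 250 mM and at 159, 235 and 233 CPM at 300 mM, with no overlap, and pairs of -0.91, -1.21 and -1.03. The blocked change was -1.06 ± 0.12 (adjusted p = 0.00315, edgeR's quasi-likelihood test), and -1.07 ± 0.44 without the block (adjusted p = 0.9999). Its paralogue Scd1 was at 53.4, 88.9 and 83.9 CPM and then at 44.1, 39.6 and 34.1 CPM, again with no overlap. Its change of -0.93 ± 0.38 did not pass, nor did the blocked one (adjusted p = 0.265, edgeR's quasi-likelihood test). How reads common to Scd1 and Scd2 were counted is not given in the sources used here. Acsl3, which activates long-chain fatty acids, had pairs of -0.72, -0.68 and -0.64 but overlapping groups (153, 258 and 214 CPM, then 92.5, 160.1 and 136 CPM). Among the sterol genes, Nsdhl, a sterol dehydrogenase, was at 35.1, 54.0 and 53.8 CPM and then at 31.0, 18.5 and 31.3 CPM. All libraries were lower and the change of -0.81 ± 0.37 did not pass. Insig1 was at 25.1, 34.1 and 53.8 CPM and then at 19.04, 12.6 and 25.8 CPM, with the groups overlapping at 25.1 and 25.8 CPM. Its change was -0.97 ± 0.55, and against NS it had fallen at 300 mM (-2.76, adjusted p = 0.00809) and did not pass at 250 mM (-1.80, adjusted p = 0.0584, edgeR's quasi-likelihood test). Fewer cells of a kind and less RNA per cell cannot be told apart in these bulk samples, for these genes or the ones that follow.

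**Figure D4:**
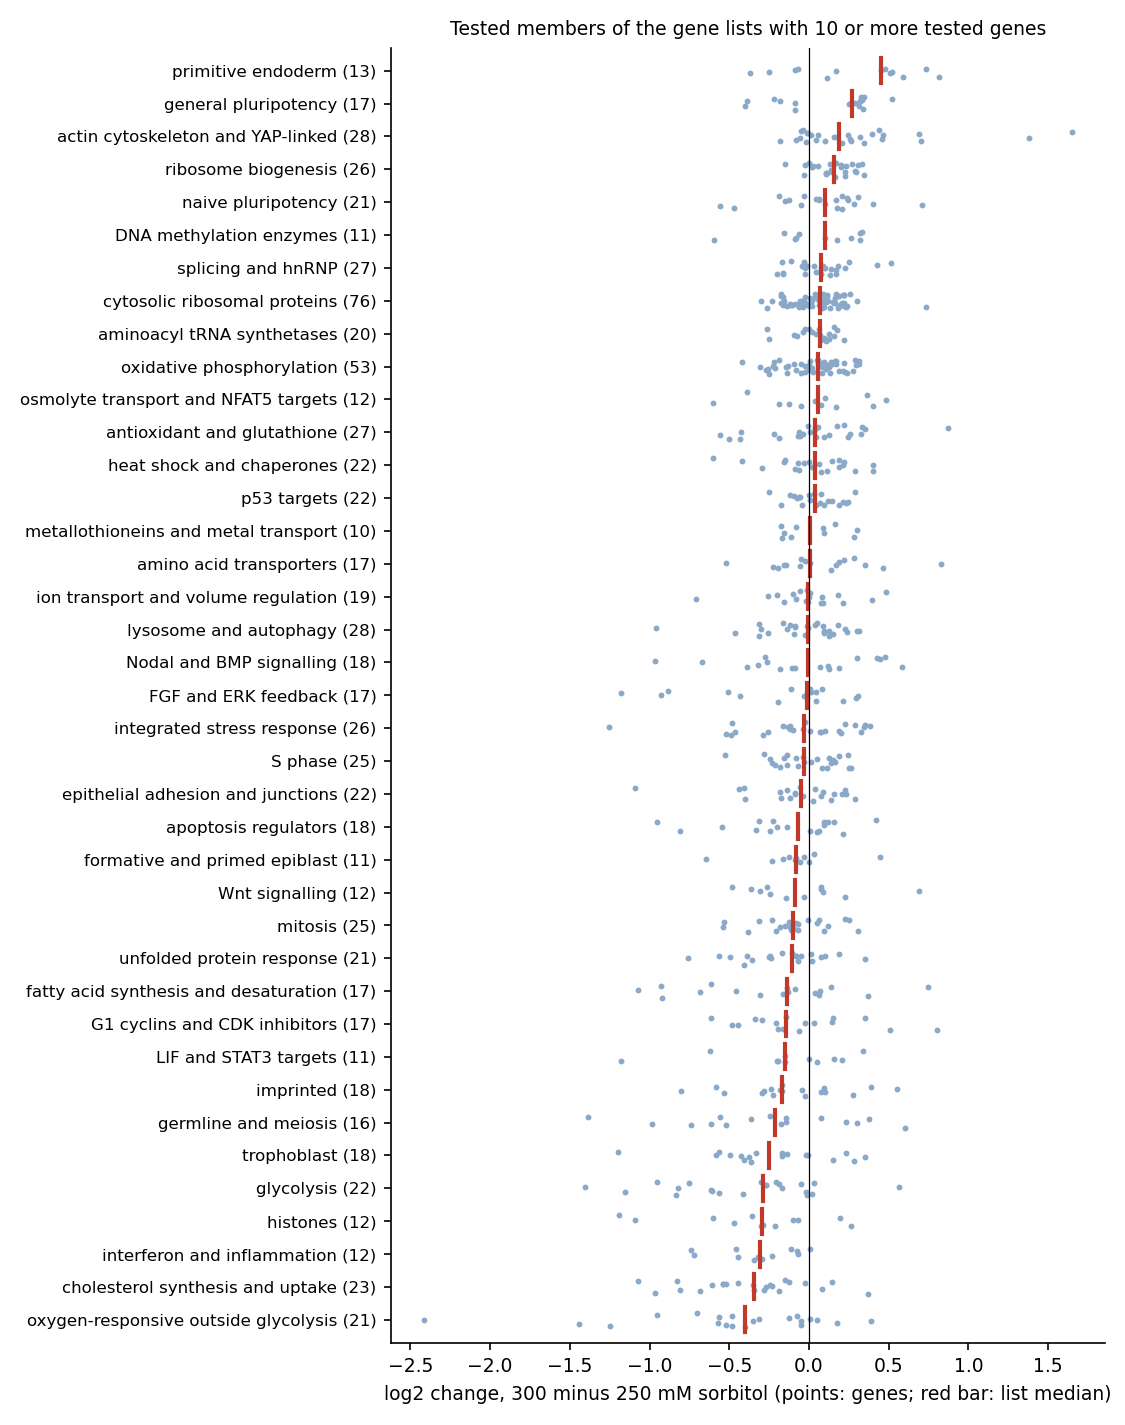
Log2 change from 250 to 300 mM of each tested gene (points) in the lists with 10 or more tested genes, with the median of each list as a red bar and the number tested in brackets. The medians of the oxygen-responsive (-0.40), cholesterol (-0.35), interferon and inflammation (-0.30), histone (-0.29) and glycolysis (-0.29) lists lie lowest, in this order. That of primitive endoderm (0.45) lies highest.

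The median change of the trophoblast list was positive from 200 to 250 mM and negative from 250 to 300 mM, 2 steps that share the 250 mM libraries. Of 18 tested trophoblast genes, 14 had a negative change from 250 to 300 mM (median -0.25), beside a median of 0.60 from 200 to 250 mM. The 4 with a positive change from 250 to 300 mM were Eomes (0.35), Lgals3 (0.28), Gata3 (0.23) and Wnt7b (0.15). Of the 18 genes, 0 passed in either step. Plac1, a gene of the placenta, was at 39.3, 23.8 and 34.8 CPM at 250 mM and at 16.9, 14.3 and 11.1 CPM at 300 mM, with no overlap and a change of -1.20 ± 0.41. The preceding step had been 1.58 ± 0.43, from 5.97, 10.5 and 17.1 CPM at 200 mM. The difference between its 2 steps, -2.78 ± 0.69, had an unadjusted p of 0.000908 and did not pass (adjusted p = 0.9997, edgeR's quasi-likelihood test). Plac1 was at 0.303 ± 0.525 CPM in NS (SD, n = 3) and was above NS at 300 mM (adjusted p = 0.00089, edgeR's quasi-likelihood test).

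Igf2, the imprinted growth factor of fetus and placenta, was at 116, 156 and 87.9 CPM at 250 mM and at 85.4, 92.7 and 70.0 CPM at 300 mM. Each library was below its partner, the groups overlapped, and the change of -0.53 ± 0.27 did not pass, beside 1.28 ± 0.28 in the step below. The difference of the steps was -1.82 ± 0.46 (unadjusted p = 0.00105, adjusted p = 0.9997, edgeR's quasi-likelihood test). Phlda2, an imprinted gene that restrains placental growth, was at 108, 69.1 and 49.9 CPM and then at 75.6, 34.5 and 40.5 CPM, with a change of -0.58 ± 0.54 after 2.06 ± 0.58. The epithelial keratin Krt8 was at 138, 108 and 112 CPM and then at 87.0, 99.4 and 80.1 CPM. All libraries were lower and the change of -0.42 ± 0.50 did not pass. Its partner Krt18, at 216, 118 and 114 CPM and then 233, 96.0 and 116 CPM, had a change of -0.01 ± 0.47, whose sign turned with the scaling (0.01 with DESeq2's size factors). Cdx2, a transcription factor of the trophoblast, had too few counts to be tested (0 in NS, 11 at 250 mM and 8 at 300 mM over 3 libraries). Over all genes the difference between the 2 steps passed in 0 of 9390 (0%), with 145 at an unadjusted p below 0.05 (1.54%), and DESeq2 called 0 as well.

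**Figure D5:**
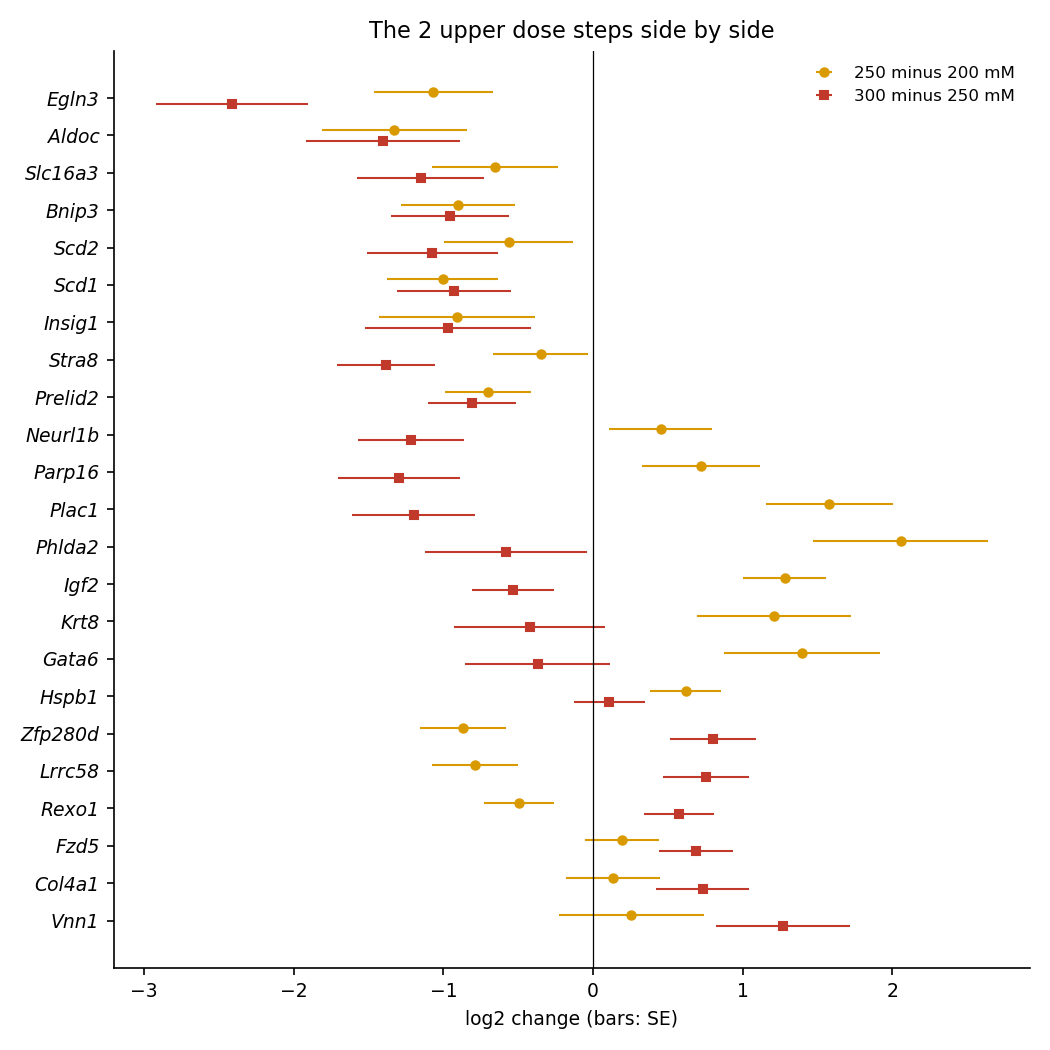
Log2 change of 23 named genes from 200 to 250 mM (circles) and from 250 to 300 mM (squares), with the SE as a bar. Both steps use the 250 mM libraries. Plac1 goes from 1.58 to -1.20 and Egln3 from -1.07 to -2.42. No step of any of these genes passed the threshold in the filtered fit of 15 libraries without the block. From 250 to 300 mM, Scd2 passed with the block in 6 libraries and Egln3 without the filter on low counts.

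The primitive endoderm is the extraembryonic layer that lays down basement membrane. Its list, which includes collagen IV, laminin and nidogen genes, had the highest median among the lists of 10 or more tested genes. Of 13 tested members 9 were positive, with a median of 0.45, replicate pairs at 0.33, 0.37 and 0.21, and 0 past the threshold. The laminin genes (Lama1 0.52, Lamb1 0.45 and Lamc1 -0.09) were mixed, and the nidogen genes were near 0 (Nid1 -0.07 and Nid2 0.11). Col4a1, a chain of collagen IV of the basement membrane, was at 60.2, 39.7 and 39.6 CPM at 250 mM and at 86.0, 62.3 and 84.7 CPM at 300 mM. All libraries were higher, with a change of 0.73 ± 0.31 that did not pass. Its partner chain Col4a2 was at 20.4, 11.9 and 12.7 CPM and then at 32.1, 18.5 and 29.5 CPM, with a change of 0.81 ± 0.43. The groups overlapped, and each replicate pair was higher at 300 mM. Sparc, a matrix glycoprotein, was at 1107, 741 and 916 CPM and then at 1665, 1116 and 1149.5 CPM, with no overlap and a change of 0.51 ± 0.33. With the block, Col4a1 changed by 0.72 and Sparc by 0.49, and neither passed (adjusted p = 0.274 and 0.143, edgeR's quasi-likelihood test). The transcription factor that defines the lineage, Gata6, went the other way in sign (27.8, 30.2 and 15.05 CPM, then 16.3, 17.7 and 23.0 CPM; -0.37 ± 0.48, overlapping). The lineage markers Sox17, Gata4, Sox7 and Pdgfra had too few counts to be tested. Summed over libraries they had 25, 9, 7 and 18 counts at 250 mM and 19, 7, 5 and 10 at 300 mM. The marker Dab2 had 26 and then 32 counts. Col4a1 and Col4a2 had risen against NS at both doses, and at 300 mM by 2.27 (adjusted p = 0.00114) and 3.34 (adjusted p = 0.00256, edgeR's quasi-likelihood test).

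No pluripotency gene passed the threshold, and Zfp42, Nanog, Sox2 and Pou5f1 overlapped between the doses. Zfp42, whose promoter drives the reporter, was at 141, 234 and 237 CPM at 250 mM and at 133, 275 and 316 CPM at 300 mM. Replicate 1 was the lowest library at both doses, and the change was 0.24 with a 95% interval of -1.02 to 1.496. Nanog was at 143, 230.2 and 251 CPM and then at 125, 184 and 297 CPM (-0.05, interval -1.28 to 1.18). For Sox2 the values were 313, 391 and 453 CPM and then 352, 293 and 346 CPM (-0.22, interval -0.86 to 0.41). Those of Pou5f1, whose pseudogenes could share its reads, were 50.8, 42.9 and 46.7 CPM and then 81.6, 50.5 and 43.3 CPM (0.33, interval -0.51 to 1.17). These intervals come from the fit without the block, and those of Zfp42 and Nanog each reached beyond 2-fold in both directions. With the block in the 6 libraries, Zfp42 changed by 0.18 and Nanog by -0.10 (adjusted p = 0.692 and 0.858, edgeR's quasi-likelihood test). The lists of 21 naive and 17 general pluripotency genes had medians of 0.10 and 0.27, with 0 past the threshold. All 3 libraries lay higher in 3 and lower in 0 of the naive genes, and higher in 3 and lower in 1 of the general genes, beside 4.77% higher and 5.15% lower over all tested genes. Of their members, Nr5a2, a nuclear receptor that can stand in for Oct4 in reprogramming, was at 82.2, 54.8 and 68.9 CPM and then at 114, 106 and 118 CPM. It did not overlap, and its change of 0.71 ± 0.63 did not pass, nor did the blocked change of 0.70 (adjusted p = 0.235, edgeR's quasi-likelihood test). Trim28, a corepressor that silences retroviral elements, was at 709, 665 and 679 CPM and then at 845, 861 and 799.5 CPM, without overlap and with a change of 0.29 ± 0.21 that did not pass. Socs3, a feedback inhibitor of LIF signalling, overlapped at 17.3, 34.1 and 43.6 CPM and then 6.53, 15.2 and 41.4 CPM (-0.62 ± 0.91).

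Genes that counter osmotic stress had medians near 0 in this step. The 12 tested genes of osmolyte transport and NFAT5 targets had a median of 0.06, with 7 positive and 5 negative. In 0 of the 12 were the doses without overlap, beside 9.93% of all tested genes, and a list of 12 is too short to tell these shares apart. Slc5a3, the inositol transporter, was at 13.1, 7.94 and 7.13 CPM at 250 mM and at 12.5, 13.5 and 11.1 CPM at 300 mM (0.37 ± 0.35), beside 20.1 ± 4.58 CPM at 200 mM (SD, n = 3). Akr1b8, an aldo-keto reductase, was at 21.996, 32.5 and 25.3 CPM and then at 32.6, 23.6 and 24.9 CPM (0.04 ± 0.40). It had risen against NS at both doses, by 2.73 and 2.77 (adjusted p = 0.00628 and 0.00377, edgeR's quasi-likelihood test). Akr1b3, the aldose reductase that makes sorbitol, had 28 counts at 250 mM, 19 at 300 mM and 6 in NS, too few to be tested. The small heat shock protein gene Hspb1 was at 726, 595 and 662 CPM and then at 646, 741 and 754 CPM. Its change of 0.11 had a 95% interval of -0.39 to 0.61, which lies within 2-fold either way, while against NS it had risen at both doses (2.02 and 2.13, adjusted p = 0.000377 and 0.000191, edgeR's quasi-likelihood test). The medians of the ion transport (19 genes), heat shock (22), unfolded protein response (21), integrated stress response (26) and p53 target (22) lists were -0.01, 0.04, -0.10, -0.03 and 0.04, with 0 genes past the threshold. Slc12a2, the sodium, potassium and chloride cotransporter that restores cell volume, was at 49.8, 45.2 and 42.8 CPM and then at 58.2, 49.7 and 85.7 CPM (0.48 ± 0.33).

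Outside these lists, the genes named on the lower side by their unadjusted p included Stra8, a gene of meiotic entry in germ cells, at 185, 333 and 250.2 CPM at 250 mM and at 142, 87.6 and 62.6 CPM at 300 mM. All libraries were lower, and the change of -1.38 ± 0.33 did not pass (unadjusted p = 0.000545, adjusted p = 0.9999, edgeR's quasi-likelihood test). Against NS, at 94.4 ± 4.92 CPM (SD, n = 3), Stra8 had risen at 250 mM (1.44, adjusted p = 0.0218) and did not pass at 300 mM (0.06, adjusted p = 0.941, edgeR's quasi-likelihood test). Neurl1b, a ubiquitin ligase of the Notch pathway, was at 72.8, 87.3 and 51.5 CPM and then at 38.1, 36.2 and 15.7 CPM. It did not overlap, each pair was lower, and its change of -1.22 ± 0.35 did not pass with or without the block (blocked adjusted p = 0.053, edgeR's quasi-likelihood test). The linker histone gene H1f0, named as a member of the histone list, was at 17.3, 45.2 and 43.6 CPM and then at 13.6, 19.4 and 16.6 CPM (-1.09 ± 0.37), overlapping only through replicate 1 at 250 mM. Pacsin1, Parp16, Camk2b, Cds1, Rec8 and Prelid2, named on the lower side by the same rule as Stra8 and Neurl1b, had changes of -1.35, -1.30, -0.82, -0.69, -0.93 and -0.81.

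On the higher side stood Fzd5, a Wnt receptor, at 114, 109.5 and 121 CPM at 250 mM and at 169, 185 and 203 CPM at 300 mM. All libraries were higher, the pairs differed by 0.56, 0.75 and 0.74, and the change of 0.69 ± 0.24 did not pass (adjusted p = 0.9999, and 0.143 with the block, edgeR's quasi-likelihood test). Against NS, Fzd5 had risen at 300 mM (1.46, adjusted p = 0.00341) and did not pass at 250 mM (0.77, adjusted p = 0.0826, edgeR's quasi-likelihood test). Vnn1, a pantetheinase, was at 12.05, 6.35 and 6.33 CPM and then at 23.9, 15.2 and 22.1 CPM (1.27 ± 0.45). It did not overlap between the doses and did not pass. Zfp280d, Lrrc58 and Rexo1 were negative in the step from 200 to 250 mM (-0.87, -0.79 and -0.50) and positive from 250 to 300 mM (0.80, 0.75 and 0.58), with 0 past the threshold in either step, and both steps use the 250 mM libraries. The remaining named genes, Cluap1, Tnpo1 and 2810422J05Rik, had changes of 0.85, 0.56 and 0.70.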

How the data were processed

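RNA was sequenced with the Lexogen QuantSeq 3' protocol, per the labels. Base calling used CASAVA 1.8.2, and STAR, HTSeq and edgeR are named with the mouse build mm9, per the submitters' processing notes (annotation, strandedness, filtering and the other versions: not given in the sources used here). Whole-number counts per gene symbol, 1 column per library, are what the authors deposited, and these counts were the input of every test; the authors' own fold changes and p-values were not used. The tables of both doses were joined on gene symbol, and 0 columns were left without a sample.

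In R 4.3.3, low genes were removed with filterByExpr at its minimum count of 10 and total of 15. The 15 libraries were then fitted together, each group with its own coefficient, by edgeR's quasi-likelihood method (version 4.0.16, TMM factors), and p-values were adjusted after Benjamini and Hochberg over all tested genes, at 0.05. CPM were scaled with TMM factors, pair differences used log2 CPM with a prior count of 2, and an SE is the absolute log2 change over the square root of the F statistic. Alternatives were other scalings, other filters, DESeq2 1.42.0, smaller sets of libraries, the replicate block and leaving out libraries. The correlation of deviations from the group means exceeded 0.1 for all 3 same-numbered pairs (0.447, 0.214 and 0.304), against -0.332 to 0.066 for other pairs. Chi-square per degree of freedom between libraries was 2.45 or more, so none was treated as a duplicate. No molecular identifiers were used, so copies made in amplification were counted as tags, and levels of 3 counts can carry more than counting error.

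The text names a fixed set of 16 genes, then the 10 genes on each side with the smallest unadjusted p, at least 20 CPM and no overlap, and up to 4 members of each of 45 lists by unadjusted p. 1 gene that this rule names is not reported here. Slc2a1, Tpi1 and Txnip were named after their values were seen. So were the list members Gata3, Lgals3, Wnt7b, Fasn, Acaca, Elovl6, Acly, Lama1, Lamc1, Nid1 and Nid2. The libraries, lists and rule were chosen with earlier results of these data known. Promoter sequences come from RefSeq tables of GRCm38.p6; those of Scd1 and Scd2 are not shown.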

Additional observations from a re-analysis of the deposited data

How the results depend on the processing

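The count of 0 genes higher and 0 lower at 300 mM held in the fit without the block under both other scalings, DESeq2, the stricter filter, both smaller sets of libraries and leaving out any library or replicate number. The exception was the fit with no filter on low counts, which called 1 gene lower (Egln3). With the replicate block in the 6 libraries the count lower was 3, and also 3 with DESeq2's size factors and 3 with DESeq2 itself (Scd2, Slc2a1 and Tpi1 each time), against 4 with library totals alone, which added Neurl1b (adjusted p = 0.0452, edgeR's quasi-likelihood test). Leaving out 1 replicate number from this block moved the count lower between 0 and 126 and the count higher between 0 and 96. The causes were not tested. The blocked adjusted p of Scd2 ran from 2.08e-09 to 0.13 over these fits, so no blocked call held in every one. The count of genes whose 2 steps differ was 0 in every fit run for it, with the block in the 15 libraries and in the 9 sorbitol libraries included; it was not computed in the blocked fits of 6 libraries.

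Of the 72 genes followed through every fit, 69 kept the sign of their change in each. Krt18 (-0.01) turned to 0.00896 with DESeq2's size factors, 0.0103 with DESeq2 and 0.00559 without the filter, and Akr1b8 (0.04) turned to -0.0127 with library totals alone. With 1 library or replicate number left out, Krt18 ran from -0.50 to 0.37, Nanog from -0.43 to 0.21 and Akr1b8 from -0.25 to 0.29, and in the blocked fits from -0.137 to 0.0637, -0.271 to 0.0155 and -0.26 to 0.30. Library totals alone moved the median of all genes to -0.05.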

Other observations

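Some other gene groups had medians away from 0 without a gene past the threshold. Of 26 tested ribosome biogenesis genes, 23 were positive at 300 against 250 mM, with a median log2 change of 0.16, a range of -0.15 to 0.35 and replicate pairs at 0.18, 0.14 and 0.17. The 76 cytosolic ribosomal protein genes had a median of 0.07. Of 28 genes of the actin cytoskeleton and YAP-linked genes, 20 were positive (median 0.19), among them Tpm1, tropomyosin, at 126, 134 and 87.9 CPM and then at 188, 147 and 144 CPM, with no overlap and a change of 0.46 ± 0.24.

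Of 12 genes of interferon and inflammation, 11 were negative (median -0.30), and of 12 tested histone genes 10 were negative (median -0.29, with replicate pairs at -0.08, -0.37 and -0.16). The immediate early gene Ier3, at 56.0, 133 and 154 CPM and then 70.7, 35.4 and 43.3 CPM, was higher at 300 mM in replicate pair 1 (0.33) and lower in pairs 2 and 3 (-1.87 and -1.80). Epcam, an adhesion protein of stem cells, was at 237, 182 and 220.1 CPM and then at 162, 172 and 149 CPM, a change of -0.40 ± 0.19 with no overlap. Of 5 tested neuroectoderm genes all 5 were positive (median 0.39).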
